A study of Homo sapiens with 9 samples.

Results

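The genes described here are 10 transcription factors tied to the identity of Ewing sarcoma cells: NR0B1, NKX2-2, BCL11B, SOX2, SOX6, KLF15, TCF4, FEZF1, POU3F2 and SOX11. They were chosen by name, with earlier results of these data known. Each matched 1 row of the 60603 genes in the table, and all 10 were among the 16093 genes with enough counts to be tested. RNA came from the established cell line TC32, Ewing sarcoma cells with the EWS::FLI1 fusion. The cells are labelled WT for genotype. Since all groups are of this line, every group carries the fusion gene. Cells were sampled at 30 h in 3 groups of 3 biological replicates: siEF, plated on an siRNA across the fusion breakpoint; siNEG, plated on a nonspecific siRNA; and Media, the group without siRNA. A single cell line was used, and all libraries are labelled as batch 1.

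Lineage transcription factors bind DNA at enhancers and promoters and set which genes a cell type uses, and several of them often sustain each other's expression. EWS::FLI1 joins the activating part of EWSR1 to the ETS DNA-binding domain of FLI1. It binds single GGAA motifs, as ETS factors do, and also tandem GGAA repeats, called GGAA microsatellites, from which it can activate transcription. NKX2-2 and NR0B1 are long known as genes that Ewing sarcoma cells need or use as markers, while SOX2, POU3F2, FEZF1, SOX11 and BCL11B are best known from the developing nervous system.

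Stretches with GGAA units are shown for NR0B1, FEZF1, SOX2 and POU3F2, because they differ in kind between these members. All were read from the GRCh38 reference, so the number of units in TC32 itself was not measured. In the NR0B1 and POU3F2 lines capitals mark the GGAA units counted in the window. In the FEZF1 and SOX2 lines they mark the unbroken run alone, and further units in the flanks are in lower case. Every sequence is written 5′ to 3′. The first line is the densest window upstream of NR0B1 (chrX:30310684-30310889, minus strand, the strand of the gene). The second is the repeat inside FEZF1 (chr7:122303453-122303556, plus strand, opposite to the gene). The third is the repeat upstream of SOX2 (chr3:181673596-181673687, plus strand). The fourth is the densest window within 5000 bases upstream of POU3F2 (chr6:98831852-98832038, plus strand), where the 5 units are single. A window as dense is found for 56.6% of tested genes, so it is not unusual. The nearest repeat run of POU3F2 lies much farther away and is given below.
NR0B1: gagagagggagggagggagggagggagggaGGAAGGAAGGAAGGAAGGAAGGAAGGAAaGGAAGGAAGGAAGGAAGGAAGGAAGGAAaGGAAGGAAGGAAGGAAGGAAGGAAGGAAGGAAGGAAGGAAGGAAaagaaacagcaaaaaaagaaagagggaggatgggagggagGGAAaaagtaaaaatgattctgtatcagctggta
FEZF1: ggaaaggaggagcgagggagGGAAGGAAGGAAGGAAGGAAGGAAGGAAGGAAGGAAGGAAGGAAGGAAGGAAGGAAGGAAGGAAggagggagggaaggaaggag
SOX2: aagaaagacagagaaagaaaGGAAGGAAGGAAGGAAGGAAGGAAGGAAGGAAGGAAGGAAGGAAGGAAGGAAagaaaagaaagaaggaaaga
POU3F2: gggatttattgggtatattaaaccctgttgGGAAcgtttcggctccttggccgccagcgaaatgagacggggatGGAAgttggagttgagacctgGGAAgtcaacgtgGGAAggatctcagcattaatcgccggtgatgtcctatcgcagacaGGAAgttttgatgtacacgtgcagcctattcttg

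NR0B1 holds 26 GGAA units on 1 strand within 150 bases, a density reached by 0.0374% of the 16037 tested genes with a gene model, in the region from 5000 bases before to 1000 bases after each gene start. Its longest unbroken run has 11 units and ends 1368 bases upstream of the start, and 0.499% of genes have a run as long in that region. Measured from the GENCODE gene start, the other 9 members have no run longer than 2 units there. Over tested genes the median longest run is 1 unit, and 2.24% have a run of 4 or more. Across the genome, the nearest run of 8 or more units on either strand lies 1.37 kb from the start of NR0B1 and 7.16 kb from that of FEZF1, where it sits in an intron and has 16 units. By RefSeq, whose FEZF1 start sites lie further downstream than the GENCODE gene start, it is 1214 or 975 bases inside the gene. From the nearer RefSeq start, this run would begin within the 1000 bases searched after a start. A run as near to the start is found for 0.249% of tested genes in the case of NR0B1 and for 1.68% in the case of FEZF1. The nearest runs are at 20.8 kb for SOX11 (10 units), 38.3 kb for SOX2 (13 units, in an intron of the noncoding gene SOX2-OT), 41.8 kb for NKX2-2 (9 units), 66.9 kb for KLF15 (10 units) and 104 kb for BCL11B (8 units). For SOX6, POU3F2 and TCF4 they are 167, 214 and 302 kb away. The median over tested genes is 274 kb, so TCF4 lies beyond it and the other 9 members lie within it, although for TCF4 some RefSeq starts come within 39.3 kb of the same run, which sits in its own intron. A match of letters is not a binding site, and these distances were not tested against the changes in expression. Binding was not measured in these libraries. The paper counts NR0B1 and FEZF1 among known targets that the fusion drives from GGAA microsatellites. In a separate assay it reports changed binding of the fusion at these genes after mithramycin.

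**Figure D1:**
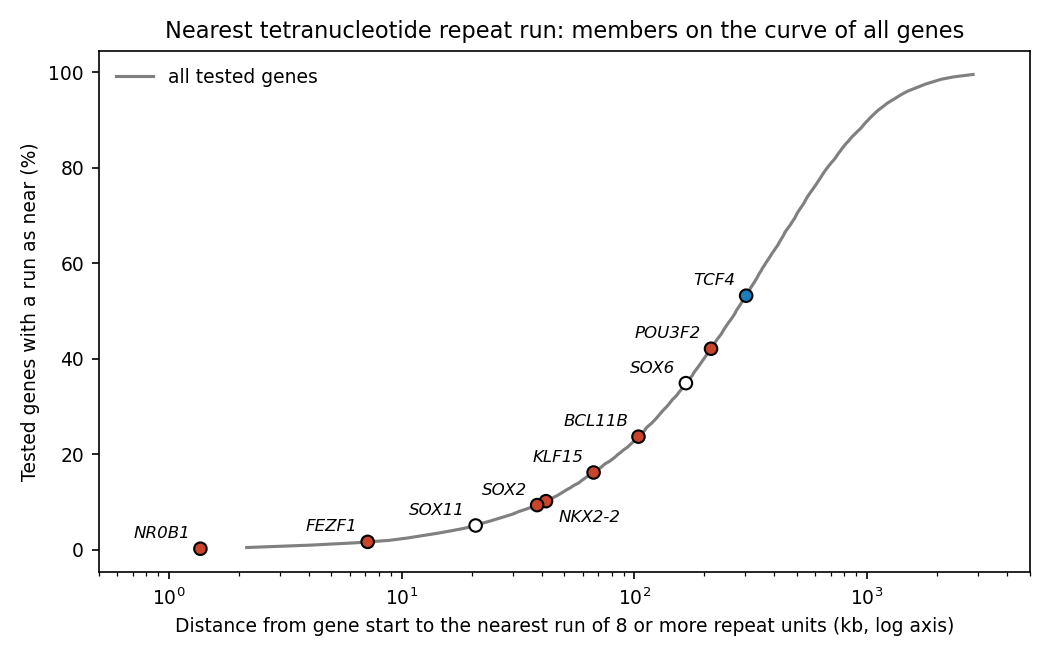
Distance from the gene start to the nearest run of 8 or more tetranucleotide units in GRCh38 (kb, log axis) against the share of tested genes with a run as near; the grey line is all tested genes. Red points are members lower in siEF than in siNEG, the blue point is TCF4, which was higher, and white points are members that were not called; NR0B1 at 1.37 kb and FEZF1 at 7.16 kb are the nearest and TCF4 at 302 kb the farthest.

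Libraries held between 20727706 and 33134581 expected counts, with the lowest total in siEF replicate 2. The 10 most abundant genes held 12.3% to 12.9% of all counts in siEF but 5.78% to 6.62% elsewhere. Levels are given as CPM, counts divided by library sizes that were scaled by the TMM method. FLI1, the 3′ partner of the fusion, was at 37.8 ± 2.0 CPM in siEF, 48.4 ± 0.32 in siNEG and 57.9 ± 1.7 in Media (mean ± SD, n = 3 throughout). Its log2 fold change was -0.35 in siEF against siNEG (adjusted P = 2.88e-05, edgeR's quasi-likelihood test with Benjamini-Hochberg adjustment). The paper reports a qPCR check of the silencing, with a larger change in expression than that of these FLI1 counts. It also states that FLI1 on its own is not expressed in this cell type. By that statement the FLI1 counts would be those of the fusion transcript. The reason for the smaller change in the counts was not tested. Of 6 markers of Ewing sarcoma cells (CD99, FLI1, STEAP1, PRKCB, LIPI and CCND1), all were above 1 CPM in every group, and their summed level lay between 2570 and 2640 CPM in Media, 2380 and 2520 in siNEG, and 471 and 484 in siEF. In Media and siNEG most of that sum was CCND1, at 1920 and 1868 CPM. In siEF CCND1 was at 95.4 CPM, below CD99 (189.1) and PRKCB (138.7). Of the 6, 4 were called lower in siEF than in siNEG, FLI1 was not, and CD99 was higher at a log2 fold change of 0.23 (adjusted P = 0.00123) without being called. Of 5 fibroblast markers (DCN, LUM, PDGFRA, THY1 and COL1A1), 4 were called higher in siEF than in siNEG. THY1 was higher at a log2 fold change of 0.50 (adjusted P = 1.36e-05) without being called. The summed level of the 5 was 486 to 510 CPM in siEF against 43.4 to 48.6 in siNEG. By the call defined below, 11.7% of all tested genes were lower and 17.1% higher. Of the leukocyte markers, CD3E had 0 counts in every library and PTPRC at most 6. Epithelial markers (EPCAM and CDH1) summed to 1.22 to 1.48 CPM in siEF, 0 to 0.0884 in siNEG and 0.412 to 0.524 in Media. At these low levels both were called higher in siEF than in siNEG (log2 fold changes 3.17 and 7.75, adjusted P = 0.000565 and 9.47e-07). EPCAM was also called lower in siNEG than in Media (log2 fold change -3.15, adjusted P = 0.0039). Endothelial markers (PECAM1, VWF and CDH5) summed to between 1.81 and 5.06 CPM. The part of the fibroblast genes in the results below was not tested, and in bulk RNA fewer cells of a type cannot be told apart from less RNA per cell.

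Against siNEG, 7 of the 10 factors were lower in siEF and 1, TCF4, was higher by the call used throughout, which asks for an adjusted P under 0.01 together with a change of more than 1 on the log2 scale. Over all tested genes the same rule called 11.7% lower and 17.1% higher. The 7 were POU3F2, NR0B1, SOX2, NKX2-2, BCL11B, FEZF1 and KLF15, which kept between 9.71% and 48.7% of their siNEG level. SOX6 and SOX11 passed the adjusted P but not the fold change, SOX6 lower and SOX11 higher. The 3 siEF libraries lay below all siNEG libraries for 8 members and above them for 2, where 37.1% of tested genes lay wholly below and 39.8% wholly above. The median log2 fold change of the members was -1.26, against 0.05 for all tested genes.

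**Figure D2:**
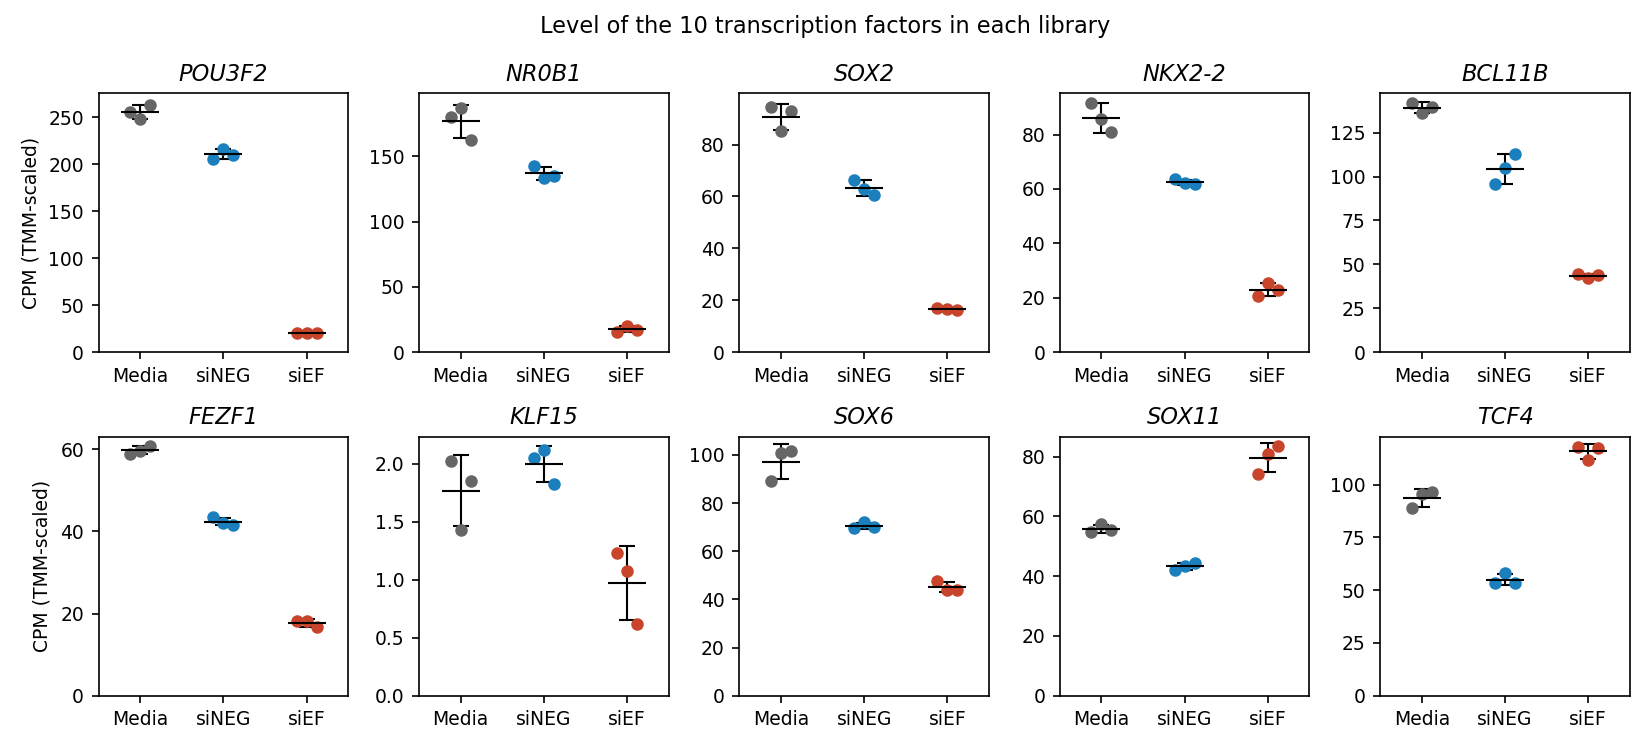
CPM of each factor (TMM-scaled, linear axes from 0) in the 3 Media, 3 siNEG and 3 siEF libraries; points are libraries, bars the mean ± SD. In every panel except that of KLF15 the siNEG libraries lie below the Media libraries, and siEF is the highest group only for SOX11 and TCF4.

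POU3F2, the POU-domain factor also called BRN2 that acts in neuronal precursors, had the deepest fall of the 10. It lies on chromosome 6 from 98834574 to 98839458 and was at 20.4, 20.3 and 20.6 CPM in siEF replicates 1, 2 and 3, at 205.5, 215.8 and 209.6 in siNEG, and at 255.6, 247.6 and 262.7 in Media. The siEF libraries were far below both controls and closer to each other than the libraries of either control. POU3F2 fell 10.3-fold against siNEG (log2 fold change -3.36, SE 0.05, adjusted P = 1.24e-17), and 12.5-fold against Media. Its relative POU3F1 fell as well, by 1.38 on the log2 scale (adjusted P = 1.45e-08), from a level of 10.3 CPM in siNEG. POU3F3 and POU3F4 had too few counts to be tested.

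NR0B1, the orphan receptor DAX1 that lacks a classical DNA-binding domain and represses other nuclear receptors, lies on chromosome X from 30304206 to 30309390. Its level was 15.6, 20.2 and 17.1 CPM in the siEF libraries, 142.7, 133.4 and 135.1 in siNEG and 180.1, 187.2 and 162.5 in Media. Every siEF library was far below every control library, and siNEG lay below Media. NR0B1 fell 7.77-fold against siNEG (log2 fold change -2.97, SE 0.08, adjusted P = 7e-15) and 10.0-fold against Media. NR5A1 and NR5A2, the receptors that NR0B1 is known to inhibit, and its relative NR0B2 had too few counts to be tested.

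SOX2, an HMG-box factor of pluripotent cells and neural progenitors, lies on chromosome 3 from 181711925 to 181714436. It was at 16.8, 16.6 and 16.4 CPM in siEF, 66.5, 62.8 and 60.4 in siNEG and 94.4, 85.1 and 92.7 in Media, with no overlap between any of the groups. The fall against siNEG was 3.81-fold (log2 fold change -1.93, SE 0.06, adjusted P = 1.05e-13). SOX2 lies within the span of SOX2-OT, but the exons of the genes share no bases in GENCODE release 44.

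NKX2-2, a homeodomain repressor that patterns the ventral neural tube and serves as a diagnostic stain for Ewing sarcoma, lies on chromosome 20 from 21511017 to 21514064. It had 20.7, 25.6 and 22.8 CPM in siEF, 63.5, 62.2 and 61.7 in siNEG and 91.6, 85.8 and 80.8 in Media. The groups did not overlap, and the siNEG libraries were closest together. NKX2-2 fell 2.71-fold against siNEG (log2 fold change -1.44, SE 0.07, adjusted P = 1.66e-11). The antisense gene NKX2-2-AS1 covers 30.05% of its exonic bases and was at 0.146 CPM in siNEG. NKX2-2 represses through TLE corepressors, of which TLE4 and TLE1 rose in siEF (log2 fold changes 2.95 and 1.79, adjusted P = 2.92e-14 and 2.19e-09). TLE2, TLE3 and TLE5 were not called, with log2 fold changes between 0.20 and 0.57.

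BCL11B, a zinc finger repressor that acts in T-cell commitment and in cortical neurons, lies on chromosome 14 from 99169287 to 99272197. It was at 44.3, 42.1 and 44.1 CPM in siEF, 95.6, 105 and 112.8 in siNEG and 141.9, 136 and 139.8 in Media, so the 3 siNEG libraries spread more than those of the other groups. No group overlapped another. BCL11B had a change of -1.26 on the log2 scale against siNEG (SE 0.06, adjusted P = 7.53e-12). Its paralog BCL11A had at most 2 counts in any library and was not tested.

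FEZF1, a zinc finger repressor that acts in the forebrain and olfactory system, lies on chromosome 7 from 122301303 to 122310691. Its values were 18.3, 18.2 and 16.7 CPM in siEF, 43.4, 42.1 and 41.6 in siNEG and 58.8, 59.7 and 60.8 in Media. The 3 groups lay apart, each within a narrow range. FEZF1 had nearly the same change as BCL11B (log2 fold change -1.26, SE 0.06, adjusted P = 9.5e-12). FEZF1-AS1, on the opposite strand, shares 782 bases (26.58%) of the FEZF1 exons and was itself at 79.9 CPM in siNEG and 24.4 in siEF. Whether the counting used strand is not given in the sources used here, so reads of the shared bases cannot be assigned with certainty. FEZF2 had 0 counts in every library.

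KLF15, a Krüppel-like zinc finger factor that joins NKX2-2 and TCF4 in the core circuitry described for Ewing sarcoma, was the least abundant member, and its result is the least secure. It lies on chromosome 3 from 126342635 to 126357408. Its counts were 34, 22 and 18 in the siEF libraries, 65, 72 and 57 in siNEG and 62, 45 and 53 in Media. Every siEF library was below every control library, while the controls overlapped each other. KLF15 kept 48.7% of its siNEG level (log2 fold change -1.05, SE 0.28, adjusted P = 0.00307). Without siEF replicate 3, the lowest of the group, it was -0.79 (adjusted P = 0.0189), and without siNEG replicate 2 it was -1.01 (adjusted P = 0.0105), so neither passed the call. Over all alternatives for this comparison the log2 fold change lay between -1.28 and -0.79, with adjusted P from 0.000582 to 0.0189.

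SOX6, a SOX factor without an activation domain of its own that acts in skeletal and neural cells, was lower than in siNEG (log2 fold change -0.64, SE 0.06, adjusted P = 6.81e-08), short of the fold change cut-off. It lies on chromosome 11 from 15966449 to 16739591 and had 47.8, 43.8 and 43.8 CPM in siEF, 69.5, 72.0 and 70.0 in siNEG, and 89.1, 100.8 and 101.8 in Media. The groups stood apart in 3 steps, with siNEG between Media and siEF.

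TCF4 and SOX11 were higher in siEF. TCF4 here is the E protein also called E2-2, a basic helix-loop-helix factor, and not the WNT effector TCF7L2 that once shared the name. It lies on chromosome 18 from 55222185 to 55664787 and was at 118, 111.7 and 117.4 CPM in siEF and at 53.5, 57.9 and 53.5 in siNEG, with no overlap. TCF4 rose to 210.4% of its siNEG level (log2 fold change 1.07, SE 0.05, adjusted P = 1.38e-11). In Media it was at 89.0, 95.5 and 96.6 CPM, between the other groups. A test of whether its log2 fold change exceeded 1 did not call it. SOX11, a SOX factor of developing neurons, lies on chromosome 2 from 5692384 to 5701385 and had 74.4, 81.0 and 83.7 CPM in siEF, 42.0, 43.5 and 44.5 in siNEG and 54.8, 57.4 and 55.5 in Media. Its groups did not overlap either, and against siNEG it stayed under the fold change cut-off (log2 fold change 0.88, SE 0.06, adjusted P = 4.76e-10). For each of these genes the Media level lay closer to siEF than the siNEG level did.

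With Media as the control, 7 members were called lower and 0 higher, where 12.5% and 17.4% of tested genes were called. This comparison shares the siEF libraries with the first. The siEF libraries lay below all Media libraries for 8 members and above them for 2, against 36.8% and 39% of tested genes. SOX6 was called here at -1.11 on the log2 scale (SE 0.06, adjusted P = 5.79e-11), though not by a test of whether its change exceeded 1, and KLF15 was not, at -0.87 (SE 0.28, adjusted P = 0.0115). KLF15 was called without siEF replicate 1 (-1.10) or Media replicate 2 (-1.01), and its adjusted P over all alternatives ran from 0.00612 to 0.0638. Falls of the other 6 ranged from -1.68 for BCL11B to -3.64 for POU3F2 on the log2 scale. TCF4 was 1.24-fold and SOX11 1.43-fold the Media level, with log2 fold changes of 0.31 and 0.51 (adjusted P = 5.17e-05 and 3.94e-07). These 2 were also the members higher at an unadjusted P under 0.05 in edgeR, and DESeq2 called 0 as well.

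**Figure D3:**
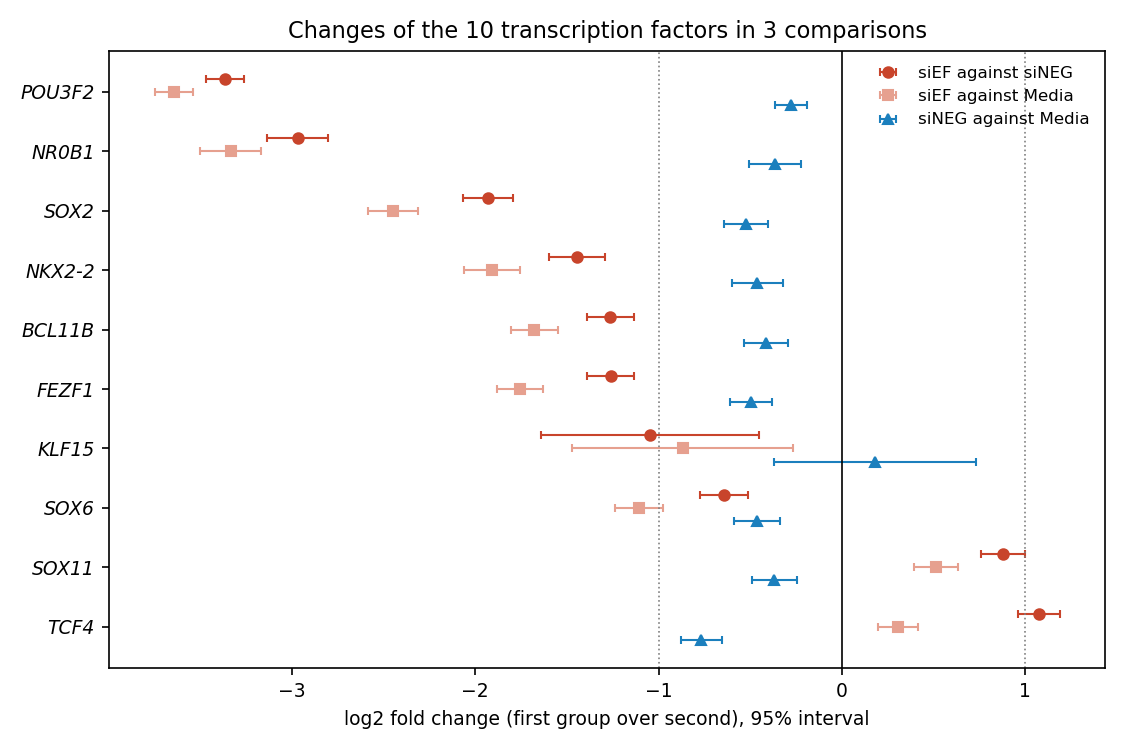
Log2 fold changes of the 10 factors with 95% intervals in siEF against siNEG (circles), siEF against Media (squares) and siNEG against Media (triangles); dotted lines mark -1 and 1. The triangles lie left of 0 for all members except KLF15, and the gap between circle and square is widest for TCF4.

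Between the controls, 9 of the 10 factors were lower in siNEG than in Media at an adjusted P under 0.01, where 5.96% of tested genes were lower and 3.83% higher by that rule, and no member was higher. None passed the fold change cut-off, which with the adjusted P called 0.429% of tested genes (edgeR and DESeq2 each called 0 members, and 9 had an unadjusted P under 0.05 in edgeR). All 3 siNEG libraries lay below all 3 Media libraries for these 9 members, against 17.3% of tested genes. The deepest of these falls was that of TCF4, at -0.77 on the log2 scale (SE 0.05, adjusted P = 7.16e-08), which left 58.7% of its Media level. SOX2 fell by 0.52, FEZF1 by 0.50, SOX6 and NKX2-2 by 0.46, BCL11B by 0.41, SOX11 and NR0B1 by 0.37 and POU3F2 by 0.28 on the log2 scale. FLI1 likewise stood lower in siNEG, at -0.26 on the log2 scale (adjusted P = 0.00347), and its part in these falls was not tested. For KLF15 the change was 0.18 on the log2 scale, with a 95% interval from -0.37 to 0.73. The median over the members was -0.44, against -0.001 for all tested genes. An effect of transfection and an effect of the siNEG sequence cannot be told apart in this design.

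Levels of different genes were compared as CPM per kb of exon. In Media the order ran from NR0B1 (88.5 ± 6.37 CPM per kb) through POU3F2 (52.3 ± 1.55), NKX2-2 (40.5 ± 2.53), SOX2 (36.1 ± 1.98), FEZF1 (20.3 ± 0.328), BCL11B (16.3 ± 0.352), SOX11 (6.21 ± 0.149), SOX6 (4.84 ± 0.354) and TCF4 (3.21 ± 0.14) to KLF15 (0.628 ± 0.109). No neighbours in this order had overlapping ranges, and siNEG gave the same order. In siEF the order changed: NKX2-2 (10.9 ± 1.14 CPM per kb) came first, followed by SOX11 (8.85 ± 0.534) and NR0B1 (8.85 ± 1.18), whose ranges overlapped, as did those of NKX2-2 and NR0B1, while POU3F2 dropped to 4.18 ± 0.0338. The order depends on the length used, the first rank in siEF included. TCF4 has 93 annotated transcripts and 29166 exonic bases but 8343 bases in its longest transcript, and SOX6 has 20093 and 9304. By the longest transcript, TCF4 had 11.2 CPM per kb in Media, SOX6 10.5 and SOX11 6.21, with TCF4 and SOX6 overlapping, and TCF4 was the highest of the 10 in siEF at 13.9.

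**Figure D4:**
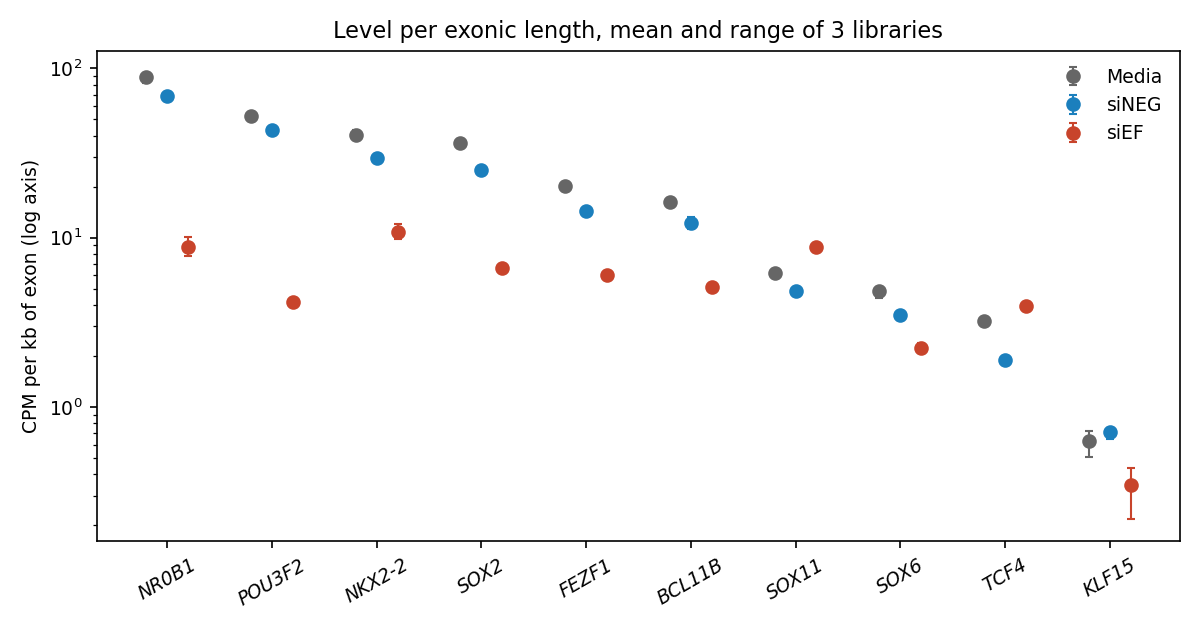
CPM per kb of exon (log axis) of the 10 factors in Media, siNEG and siEF; points are means and bars the range of 3 libraries. The factors that are highest in Media lie within a narrower span in siEF, where NKX2-2, SOX11 and NR0B1 are the top 3 by this length but not by that of the longest transcript, which puts TCF4 first.

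SOX genes fall into subgroups by sequence, and the relatives of SOX2, SOX11 and SOX6 are given by subgroup. Of the 16 other SOX genes listed for comparison, 8 were tested, 4 were higher, among them SOX15 at under 1 CPM, and 1 was lower in siEF than in siNEG, with a median log2 fold change of 1.02. Over all tested genes, 17.1% were called higher and 11.7% lower in this comparison. SOX1, which with SOX2 belongs to the SOXB1 subgroup of neural progenitor factors, fell from 142.8 to 19.4 CPM (log2 fold change -2.88, adjusted P = 2.7e-16). SOX3, the remaining SOXB1 gene, had at most 4 counts in any library. SOX4 and SOX12, which with SOX11 form SOXC, had log2 fold changes of 0.57 and 0.55 (adjusted P = 1.01e-07 and 1.4e-07), in the direction of SOX11 and under the cut-off. In SOXD the relatives of SOX6 had the opposite sign. SOX5 rose from 6.25 to 23.2 CPM (log2 fold change 1.89, adjusted P = 3.74e-10) and SOX13 by 1.03 (adjusted P = 3.41e-09). SOX9, the SOXE factor of cartilage and neural crest derivatives, rose from 10.8 to 159.3 CPM, a log2 fold change of 3.89 (adjusted P = 3.19e-16). SOX10 had 0 counts in every library.

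E proteins bind DNA in pairs and are held in check by ID proteins, which cannot bind DNA. Beside the rise of TCF4, TCF12 had a log2 fold change of 0.55 (adjusted P = 1.44e-08) and TCF3 one of -0.12 (adjusted P = 0.0503). In siNEG against Media, TCF12 had a log2 fold change of -0.37 (adjusted P = 3.68e-05). Among the ID genes, ID2 fell from 231.2 to 61.1 CPM (log2 fold change -1.92, adjusted P = 5.26e-15), whereas ID1 and ID3 rose by 1.56 and 1.03 (adjusted P = 1.33e-09 and 1.43e-11). ID4 was not called, at -0.66. Of the 11 partner genes in all, TLE and ID genes included, 9 were tested, 4 rose and 1 fell, with a median log2 fold change of 0.57. The shares called over all tested genes were 17.1% higher and 11.7% lower.

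KLF15 differed in direction from most of its family. In siEF against siNEG, 17.1% of all tested genes were called higher and 11.7% lower. Of the 16 other KLF genes, 12 were tested, 5 rose and 0 fell (edgeR and DESeq2), with a median log2 fold change of 0.69. At an unadjusted P under 0.05, 1 was lower: KLF16, at -0.69 (adjusted P = 6.42e-08). KLF5 rose from 18.5 to 115.1 CPM, a log2 fold change of 2.64 (adjusted P = 2.6e-14), and KLF4 from 7.47 to 37.2 CPM (2.31, adjusted P = 2.6e-12). KLF2 and KLF3 rose by 2.17 and 1.20 on the log2 scale.

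**Figure D5:**
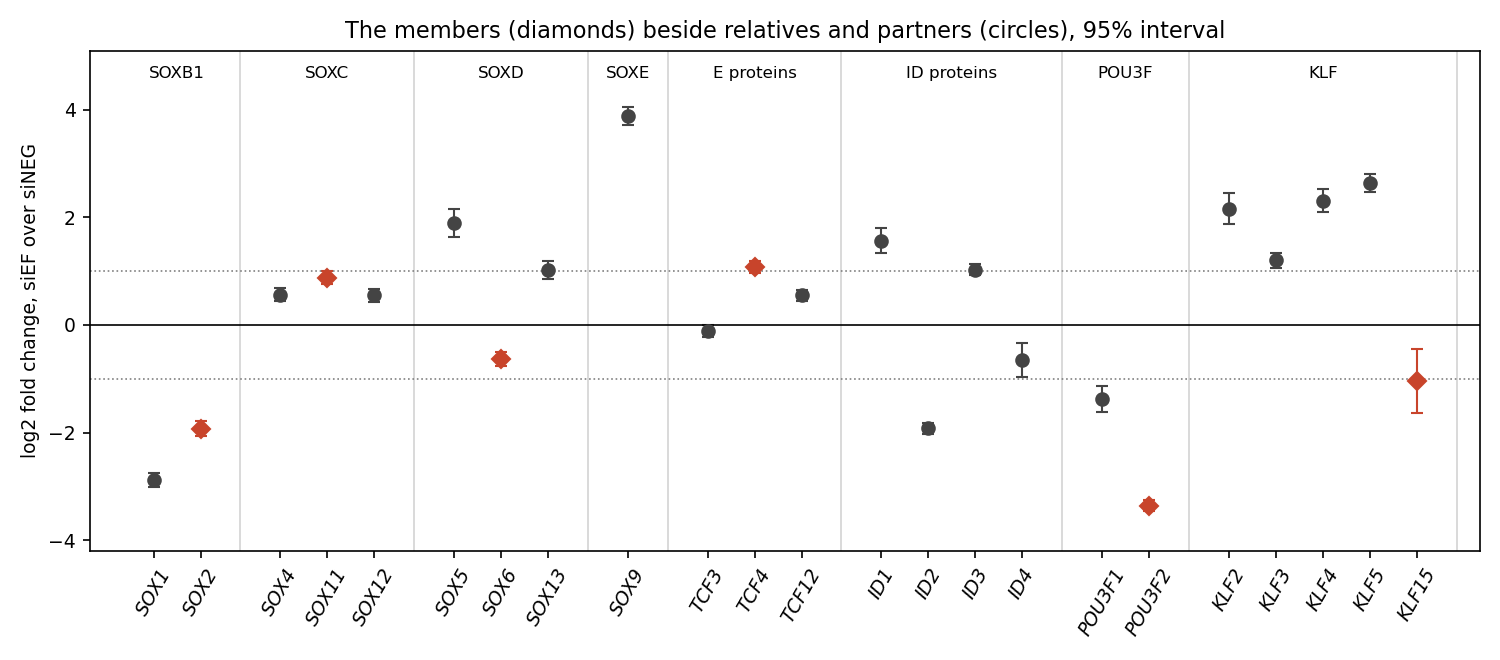
Log2 fold changes of siEF over siNEG with 95% intervals; diamonds are members of the 10 and circles their relatives and partners, with dotted lines at -1 and 1. SOX1 and SOX2 lie below -1, the SOXC genes between 0.55 and 0.88, and SOX6 and KLF15 lie on the other side of 0 from the relatives drawn beside them, which for KLF15 are the 4 KLF genes with the largest rise.

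For the lists that follow, the shares called over all tested genes against siNEG were 11.7% lower and 17.1% higher. Among 8 other transcription factors known from Ewing sarcoma, 3 fell and 1 rose against siNEG, with a median log2 fold change of -0.33. PAX7 and HOXD13 fell (log2 fold changes -2.87 and -2.37, adjusted P = 1.81e-09 and 4.8e-15) and MYBL2 fell by 2.06 (adjusted P = 1.34e-14), while FOXO1 rose by 1.96 (adjusted P = 4.57e-13). MEIS1, described as a partner of the fusion at enhancers, differed by 0.10 on the log2 scale (SE 0.05, adjusted P = 0.0555). Of 12 factors that pattern the ventral neural tube beside NKX2-2, 3 had enough counts to be tested: NKX6-1 fell by 1.69 (adjusted P = 2.64e-09), IRX3 rose from 0.506 to 1.44 CPM (adjusted P = 0.00091), and PAX6 was not called at -0.54, the median of the 3. OLIG2 and FOXA2 had 0 counts in siEF and siNEG. Of 9 factors of mesenchymal and skeletal progenitors, all tested, 6 rose and 0 fell (edgeR and DESeq2), with a median log2 fold change of 1.58. PRRX1 rose from 2.67 to 38.6 CPM, a log2 fold change of 3.86 (adjusted P = 6.19e-14). TBX15, RUNX2 and MSX2 rose by 2.25, 2.19 and 2.09, and 2 were lower at an unadjusted P under 0.05, TWIST1 at -0.60 and MSX1 at -0.36. Of the 14 closest relatives of the remaining members, 7 were tested, 1 fell (POU3F1) and 0 rose (edgeR and DESeq2), where at an unadjusted P under 0.05 TCF12 was also higher and NKX2-4 (-0.85, adjusted P = 2.36e-05) and TCF3 were lower. Their median was 0.04 on the log2 scale, near that of all tested genes. Against Media the calls were 1 lower and 3 higher for the other SOX genes, 0 and 4 for the KLF genes, 1 and 3 for the partners, 3 and 1 for the Ewing sarcoma factors, 1 and 1 for the ventral neural tube factors, 0 and 6 for the mesenchymal factors and 2 and 0 for the closest relatives, where NKX2-4 joined POU3F1. Over all tested genes, 12.5% were called lower and 17.4% higher against Media.

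Likeness of pattern was measured as Pearson's r of log2 CPM over the 9 libraries. Among the 13466 genes at a mean of 1 CPM or more, the 3 most like NR0B1 were MARS, H2AFZ and TCF19 (r from 0.9992 to 0.9996), and those most like SOX2 were TBX5, PSMD7 and CCK (r from 0.9986 to 0.9994). NKX2-2 was followed most closely by NGFR, PIM3 and SART1, and BCL11B by TOX2, DAG1 and PVR, with r between 0.9974 and 0.9988. The 9 points come from 3 groups, so these values describe mainly the 3 group levels, and a high r does not mean a like amount of change: CCK fell by 3.05 on the log2 scale against siNEG and TBX5 by 1.17.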

How the data were processed

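RNA-seq libraries of TC32 cells were grouped by their labels, which also give the replicate numbers. Per the methods of the study, the authors mapped reads to hg38 with STAR and quantified genes with RSEM, and they deposited expected counts per gene in each of 9 libraries, neither scaled nor pooled. The submitters' processing notes also name cutadapt 2.10, FastQC and DESeq2 1.32.0. The label names a small RNA library kit, although the molecule is given as polyA RNA. Annotation release and strand setting are not given in the sources used here.

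Expected counts were rounded, filtered with filterByExpr and fitted over all 9 libraries in edgeR 4.0.16 (R 4.3.3) with TMM scaling, a mean per group and Benjamini-Hochberg adjustment over 16093 genes. SE is the log2 fold change over the square root of F. The fit was checked on simulated counts. P values set each group difference against the spread between these replicates, which edgeR estimates over all groups and moderates across genes. The replicates are of a single cell line. Gene models are from GENCODE release 44 (60261 table genes matched) and start sites also from RefSeq. Log2 CPM used a pseudocount of 0.5.

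The genes named were the 10 members, FLI1 and EWSR1, the relatives SOX4, SOX5, TCF3, TCF12, BCL11A and MEIS1, at most 4 called genes a direction of each comparison list at 1 CPM or more, and the 3 genes most like 4 members; other genes were named after their values were seen. The members and lists were chosen with earlier results of these data known. EWSR1, the 5′ partner, had a log2 fold change of -0.23 in siEF against siNEG. Alternatives were RLE or upper quartile scaling, DESeq2 1.42.0, every gene kept in the fit, only the 6 libraries compared, a replicate block, other call rules and each library left out. A few listed genes are not reported here.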

Additional observations from a re-analysis of the deposited data

How the results depend on the processing

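Each member's log2 fold change was recomputed under 12 alternatives per comparison and kept its direction in all of them. In siEF against siNEG 117 of 120 values stayed on the same side of the call, in siEF against Media 118 of 120, and in siNEG against Media 120 of 120; the exceptions were all those of KLF15, which also missed the call with upper quartile scaling (-0.96). That scaling put the median log2 fold change of all tested genes at 0.132, against 0.046 with TMM. Neither it nor RLE turned the sign of any of the 66 tested genes on the lists. Against siNEG, 2 members were higher by the adjusted P alone and 0 when tested against the cut-off itself, which also lost KLF15. Against Media, 2 were higher by the adjusted P alone, the test against the cut-off lost SOX6 and called 6, and between siNEG and Media 9 members changed, 9 of them lower. These call rules ask a looser or stricter question by construction. With each library left out, 7 or 8 members were called against siNEG and 7 or 8 against Media. The lists were recomputed under alternatives added after seeing the data: without siEF replicate 2, 2 of the closest relatives fell in place of 1, and no other list count moved by more than 1.5 times. Replicate numbers did not pair the libraries (correlations of deviations between same-numbered libraries from -0.168 to 0.134), and the fit with a replicate block called 8 members against siNEG, 7 against Media and 0 between the controls. KLF15 had at most 72 counts in a library, and the effect of depth was not tested.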
